A study of Mus musculus with 4 samples.

Results

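The genes described here are those of the mouse major histocompatibility complex (MHC) and of antigen presentation that an Agilent whole mouse genome array names. They comprised every probe whose gene name in the array files began with H2-, together with the probes named B2m, Tap1, Tap2, Tapbp, Cd74, Ciita or Cd1d1, which gave 73 of 41174 probes and 46 of 27068 gene names. The genes were divided into 3 class I genes (H2-K1, H2-L and H2-D4), 4 genes of the class I light chain and peptide loading, 25 class Ib genes, 12 class II genes and 2 H2-Ke genes, which lie in the same region but do not present antigen. No probe carried the name H2-D1, and H2-L and H2-D4 are names given by the array, whose transcripts were not tested. Names alone decide membership, but the group was chosen by the KO over control ratios of H2-T3, which had been seen far higher in Rspo3 KO colon, so these ratios are given without a test.

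RNA was measured on 4 dual-color arrays. For the Rspo3 experiment, colon RNA of Myh11CreErt2/Rspo3 fl/fl mice (Rspo3 KO) was hybridised against that of Myh11CreErt2/Rspo3+/+ littermates (control), with 1 mouse per channel and reversed dyes on the second array, which gave 2 pairs of mice. The mice were males of 6 to 8 weeks on a C57BL/6 background, and both groups carried the Cre and received tamoxifen at 4 mg per 25 g body weight 2 weeks earlier. The Cre is driven from Myh11, so recombination takes place in myofibroblasts and smooth muscle, and the epithelium of the KO keeps its Rspo3 alleles. For the Axin2 experiment, tdTomato+ (Axin2+) and tdTomato- (Axin2-) epithelial cells were sorted from the colon of Axin2CreErt2/Rosa26-tdTomato mice 24 h after tamoxifen and pooled from 3 mice. The Axin2 mice were likewise 6 to 8 weeks old and received 4 mg tamoxifen per 25 g body weight. These 2 pools were hybridised on 2 arrays with swapped dyes, which is 1 replicate, so that the Axin2 values are given with no test.

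Classical class I molecules display peptides from inside the cell on nearly all nucleated cells. Their heavy chain pairs with β2-microglobulin, and the peptides reach them through the Tap transporter and tapasin. Class Ib molecules share this fold but vary less between individuals, and several of them are ligands of receptors on intraepithelial lymphocytes, natural killer cells or unconventional T cells. Class II molecules display peptides taken up from outside, mainly on B cells, dendritic cells and macrophages, and on gut epithelium under interferon-γ.

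Values are log2 ratios of Rspo3 KO over control or of Axin2+ over Axin2- after background correction and loess normalisation. A gene was read from its brightest probe and counted as measured when each array of the experiment had that probe well above background in 1 or both channels. Of the 46 genes, 31 were measured in colon RNA and 30 in the sorted cells. A gene was counted as past 1.5-fold when its mean of both arrays exceeded 1.5-fold and both arrays pointed the same way. The ratios of the 2 mouse pairs correlated with a Pearson r of 0.030 across 15295 genes, which are not independent replicates, and 44.1% of genes had the same sign in both pairs. In the dye swap of the Axin2 pools, r was 0.925. Between 53.1% and 60.3% of the 43379 gene spots per array were well above background in a channel.

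The probes on which the KO results turn are shown as 60-mers where they span an intron and otherwise as a stretch of 30 bases. The first H2-T3 probe below, A_51_P129127, lies on mm9 chr17:36323613-36323966 (minus strand) across 354 bases of genome, and the second, A_52_P246277, begins with the 30 bases given and lies at chr17:36323454-36323516 on the same strand.
A_51_P129127: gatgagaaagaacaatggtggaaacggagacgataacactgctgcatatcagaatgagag
A_52_P246277: acaatgtcttgttacttctactgcaggcaa
For H2-Bl, probes A_51_P247114 and A_52_P560113 overlap by 30 bases at mm9 chr17:36217119-36217148 (minus strand), so they are no independent measurements, and this is the stretch they share.
Shared H2-Bl stretch: gctcaaatctttgagctgagggttgattag
The third H2-Bl probe, A_52_P350519, lies elsewhere, at chr17:36220441-36220687 across 247 bases, and is shown beside the H2-K1 probe A_52_P474242 at chr17:34136478-34136724, which also covers 247 bases of genome. Capitals mark the bases that differ when the probes are set against each other with a shift of 1 base, at which 46 of 59 bases are equal.
A_52_P474242: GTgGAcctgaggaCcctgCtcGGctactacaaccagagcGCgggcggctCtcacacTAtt
A_52_P350519: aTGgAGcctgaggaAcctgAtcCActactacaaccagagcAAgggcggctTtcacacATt
Other probes of different genes shared runs of bases as well. The longest run was 28 bases between H2-Q7 and H2-T23, followed by 24 bases between H2-L and H2-Q2 and 20 bases between H2-K1 and H2-Q10. Whether class I and Ib probes read each other's transcripts was not tested, and their counts are not counts of independent genes.

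H2-T3 encodes the thymus leukemia antigen, a class Ib molecule of the intestinal epithelium that binds CD8αα on intraepithelial lymphocytes. Its brighter probe, A_52_P246277, had a log2 ratio of 3.60 in pair 1 and 3.24 in pair 2, a mean of 3.42 ± 0.256 (SD, n = 2 pairs) or 10.7-fold. In log2 signal after normalisation between arrays, the control mice read 7.73 and 7.47 and the KO mice 11.33 and 10.71. The second probe, A_51_P129127, gave 2.63 and 2.74, with control signals of 6.93 and 6.12 and KO signals of 9.56 and 8.86. Its control signal was not well above background on either array, so that its KO level is given as at least 6.20-fold higher, a bound that sets the control at no less than the lowest signal measured on its array. The probe A_52_P246277 is named LOC633417 in the array files of the KO experiment and H2-T3 in those of the Axin2 experiment, while A_51_P129127 is named H2-T3 in both. In the sorted epithelium, H2-T3 was well above background in both pools and differed little between them, at -0.09 and -0.32 on the brighter probe and at -0.14 and -0.36 on the other.

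**Figure D1:**
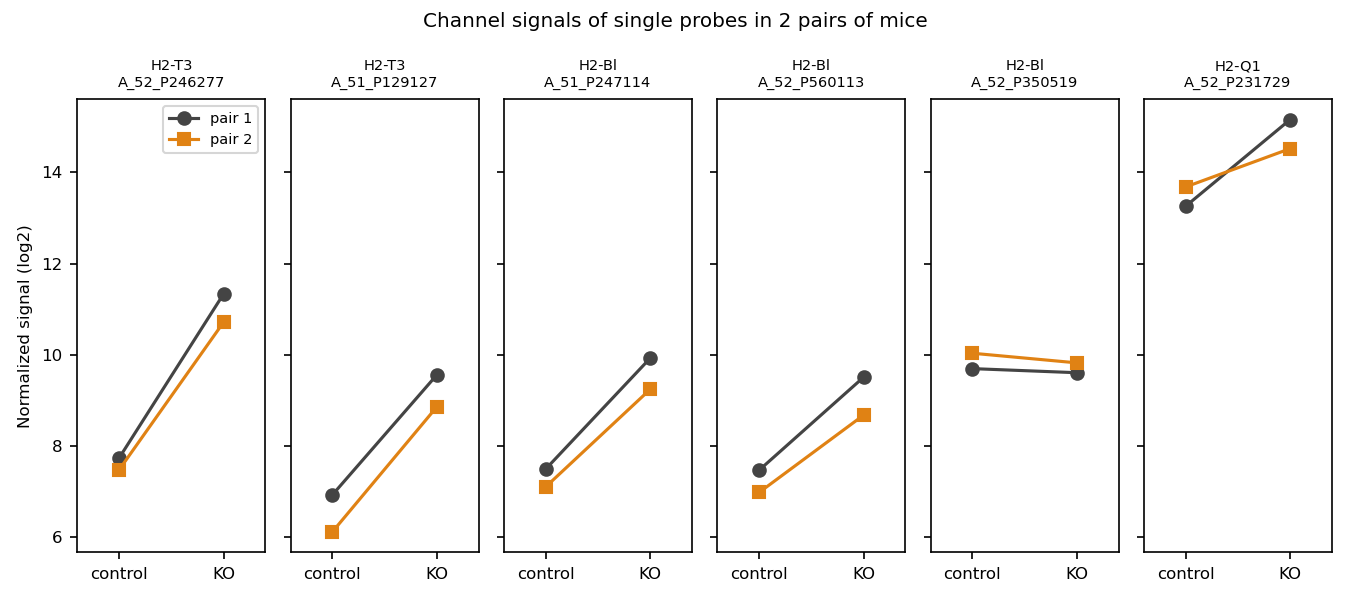
Normalised log2 signal (vertical axis) of 6 single probes in control and KO mice, with the 2 pairs as separate lines. H2-T3 and the overlapping H2-Bl probes are higher in KO than in control in both pairs, whereas the third H2-Bl probe lies between 9.60 and 10.03 in all 4 mice.

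H2-Bl, a class Ib gene listed near H2-T3 in the T region, gave different results by probe. The overlapping probes A_51_P247114 and A_52_P560113 were higher in KO, at 2.43 and 2.14 and at 2.04 and 1.70, with adjusted p of 0.028 and 0.042 in limma's fit over all 22539 probes. In that fit 38 probes, or 0.169%, were called. The brightest H2-Bl probe, A_52_P350519, read -0.09 and -0.21 (adjusted p = 0.9998), and it represents the gene in all counts below. Both overlapping probes are named H2-Bl in the array files of the KO experiment and carry a transcript identifier in its place in those of the Axin2 experiment, whereas A_52_P350519 is named H2-Bl in both. Which of the probes reports H2-Bl was not tested.

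H2-Q1, a class Ib gene of the Q region, was higher in KO at 1.90 in pair 1 and 0.84 in pair 2 (mean 1.37 ± 0.750 SD, n = 2). It did not pass the fit over all genes (adjusted p = 0.257, limma). H2-Q10, whose product is a secreted class I molecule known from liver, had 5 measured probes that disagreed. Probe A_52_P112219, which carries a transcript identifier in the files of the Axin2 experiment, read 1.24 and 1.41 (adjusted p = 0.133 over all probes), and A_52_P428354 read 0.95 and 0.46, whereas A_51_P230269 read -0.92 and 0.81 and A_51_P230267 -0.60 and 0.27. The brightest, A_51_P496997, read 0.52 and -0.03, so the gene had no common direction. Over single probes, 7 of 25 measured class Ib probes were past 1.5-fold higher, where 1.68% of all probes were, and these were the 2 H2-T3 probes, both overlapping H2-Bl probes, the H2-Q1 probe and 2 H2-Q10 probes. The H2-T3 probes among them are those that led to the choice of the set.

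No remaining class Ib gene was past 1.5-fold in the KO. H2-T23 (Qa-1), a ligand of CD94/NKG2A, read -0.35 and -0.47. H2-T22, recognised by γδ T cells, read -0.79 and 0.09, and H2-Q5 -0.96 and 0.22. H2-K2 read 0.76 and -0.23, H2-Q4 0.46 and -0.24, H2-Q2 0.29 and -0.17, and H2-M2 0.24 and -0.29. H2-Q7, which encodes the lipid-anchored antigen Qa-2, read 0.46 and 0.02, and H2-M3, which presents formylated bacterial peptides, 0.04 and -0.19. Cd1d1, which presents lipids to natural killer T cells, read 0.29 and 0.45. Without H2-T3, 13 class Ib genes were measured, of which 3 were higher in both pairs, 2 were lower in both and 8 pointed in opposite directions. The 11 other class Ib genes, namely H2-M1, H2-M9, H2-M11, the 6 H2-M10 genes, H2-T18 and H2-T24, did not reach the criterion in either experiment.

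No classical class I gene and none of their partners passed the test in the KO. H2-K1 read -0.47 and 0.05, H2-L 0.89 and 0.03, and H2-D4 0.47 and -0.05, and each had an adjusted p of 0.9998 (limma). These are names given by the array, and the name H2-L had no match in RefSeq. Which transcripts the probes named H2-L and H2-D4 read was not tested. The 4 H2-K1 probes lay between -0.72 and 0.11 in pair 1 and between -0.47 and 0.15 in pair 2. B2m, the light chain, read 0.57 and 0.32, the transporter subunits Tap1 -0.03 and 0.37 and Tap2 0.28 and 0.26, and Tapbp, which encodes tapasin, -0.23 and -0.26. The dimmer probes of B2m and Tapbp had no common direction. For B2m, A_51_P129006 read 1.01 and -0.08 and A_52_P105594 read 0.32 and -0.05. For Tapbp, A_52_P684830 read 0.34 and -0.08.

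Class II genes lay below 0 in pair 1 and nearer to 0 in pair 2. Of 12 class II genes 8 were measured, of which 5 were lower in both pairs, where 23.8% of all genes were, and 3 pointed in opposite directions. Their medians were -0.89 in pair 1 and -0.21 in pair 2, against -0.00 and -0.02 over all genes. H2-Eb1, the β chain of I-E, read -1.38 and -0.91 (adjusted p = 0.233), and H2-Oa, a chain of the DO molecule that restrains peptide loading chiefly in B cells, read -1.94 and -0.88 (adjusted p = 0.226). A second H2-Oa probe read -1.36 and -0.62. By their brightest probes, these 2 genes were the members past 1.5-fold lower, where 2.46% of all genes were. The I-A chains H2-Aa (-0.54 and -0.19) and H2-Ab1 (-0.76 and -0.33) and the transactivator Ciita (-0.79 and -0.23) were lower by less. The other H2-Ab1 probes differed from the brightest. A_51_P215237 (-1.17 and -0.31) and A_51_P215242 (-1.11 and -0.27) were past 1.5-fold lower, where 2.04% of all probes were. A_52_P570717 read -0.64 and 0.04. The invariant chain Cd74 read -0.90 and 0.32, and the peptide exchange factors H2-DMa and H2-DMb1 read -0.88 and 0.01 and -0.92 and 0.20. H2-DMb2, H2-Eb2, H2-Ob and H2-Ea-ps did not reach the criterion. No channel of either experiment had H2-Ea-ps well above background, and its gene is known to be silent in the H2b haplotype of C57BL/6.

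B cell markers were lower in the same mice. Of 8 B cell markers 5 were measured, and all 5 were lower in both pairs, 4 of them past 1.5-fold, and Ms4a1, which encodes CD20, read -2.75 and -2.27 (adjusted p = 0.014, limma). Cd79a, Pax5 and Blk did not reach the criterion. The summed normalised signal of the 5 markers was 806 and 862 in the KO mice and 3835 and 2194 in the controls. The 8 measured macrophage markers summed to between 12545 and 16056 in KO and between 10250 and 13617 in controls, and 5 were higher in both pairs. The 3 measured of 7 dendritic cell markers summed to between 474 and 660 in KO and between 676 and 714 in controls, with Flt3, Xcr1, Cd209a and Clec9a below the criterion. For plasma cell markers the summed signal went the other way, with a median log2 ratio of 0.0003 in pair 1 and 0.97 in pair 2. The 4 measured summed to 14340 and 16650 in KO and 10751 and 9424 in controls, with 2 higher in both pairs, among them Jchain (0.75 and 1.12), and 2 opposed. The 4 measured T cell markers summed to 440 and 560 in KO and 744 and 560 in controls, with 2 lower in both pairs and 2 opposed. In RNA of whole colon, fewer cells of a type and less RNA per cell cannot be told apart, and the part of B cells in the class II values was not tested.

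**Figure D2:**
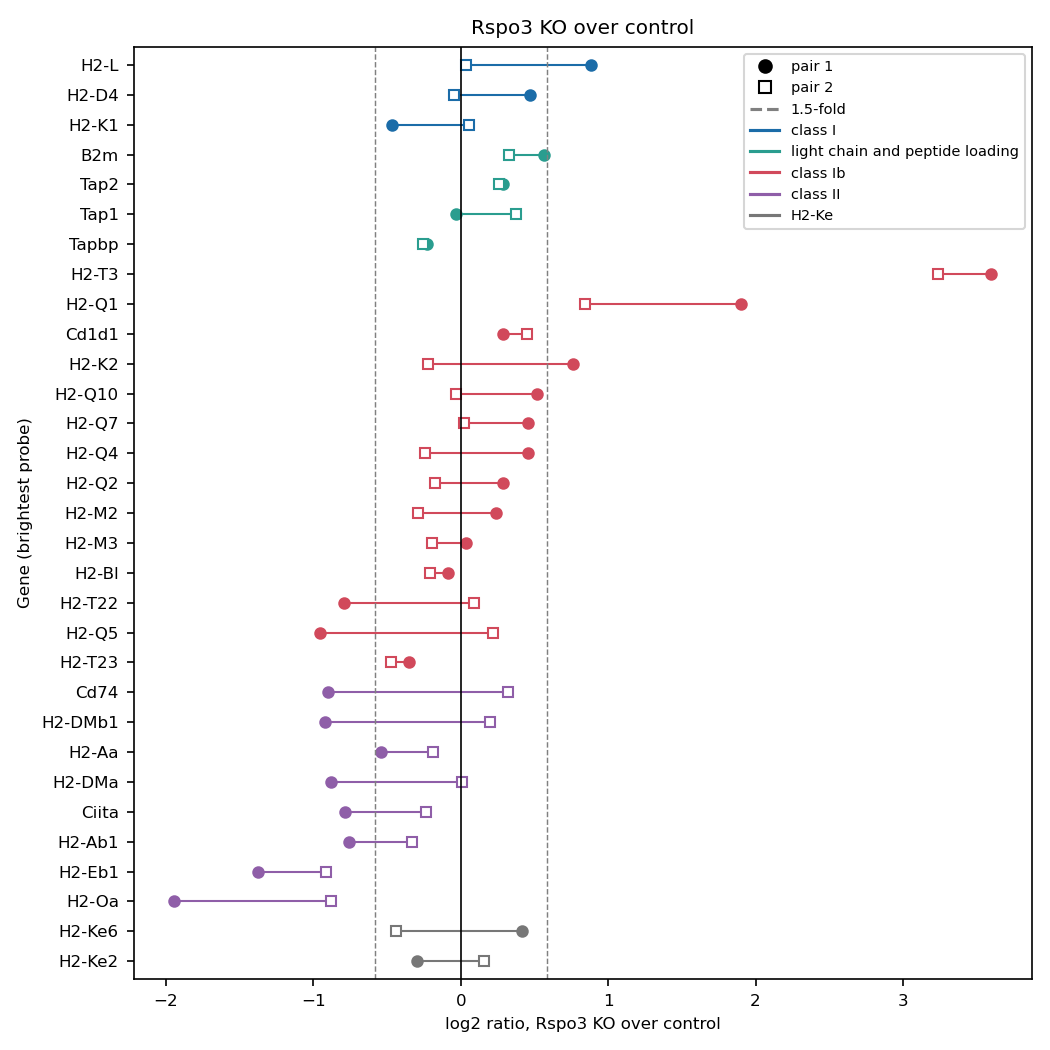
Log2 ratio of Rspo3 KO over control (horizontal axis) for the 31 measured genes, with pair 1 as filled circles, pair 2 as open squares and lines joining the pairs of a gene. H2-T3 stands at 3.60 and 3.24, and H2-Eb1 and H2-Oa are the class II genes beyond the dashed 1.5-fold line in both pairs.

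Leaving out H2-T3, 30 members were measured in the KO, and 0 passed an adjusted p of 0.05 in limma's fit, in which 0.235% of 15295 genes passed (36 genes). At an unadjusted p of 0.05, 3 members passed, namely H2-Q1, H2-Eb1 and H2-Oa, and 708 of all genes. By direction, 6 were higher in both pairs, where 20.3% of all genes were, 8 were lower in both and 16 were opposed, and H2-Q1 was the member past 1.5-fold higher, where 1.85% of all genes were. H2-Q1 and H2-Oa passed with a background offset of 16 (adjusted p = 0.038 and 0.011), and H2-Q1 and H2-Eb1 passed in a fit of all 4 arrays with a dye term (adjusted p = 0.00582 and 0.011), which takes part of its spread from the technical dye swap. Over the alternatives run, the adjusted p ranged from 0.00582 to 0.99998 for H2-Q1, from 0.011 to 0.99998 for H2-Oa and from 0.011 to 0.99998 for H2-Eb1. The pairs differed in size for class II, with medians of -0.89 in pair 1 and -0.21 in pair 2, against -0.00 and -0.02 over all genes.

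The shares of genes past 1.5-fold around H2-T3 rest on few genes. Among 131 other measured genes between 33 and 38 Mb of chromosome 17, 4 were past 1.5-fold higher (Angptl4, BC023719, C2 and Trim15), 4 were past 1.5-fold lower (Cyp4f14, D17H6S56E-5, Ltb and Ubd), and 0 were called by limma, with these 8 genes at an unadjusted p under 0.05. That is 3.05% higher and 3.05% lower, against 1.85% and 2.46% of all genes, and 6.11% at the unadjusted p, against 4.63%. Their medians were -0.15 and 0.03 in the 2 pairs. BC023719 was dim in the controls, with signals net of background of 10.6 and 12.3, against 65.1 and 47.0 in the KO. Over all 4 arrays, the 5 genes nearest to H2-T3 by Euclidean distance of the log2 ratios among 13555 genes were Pam (distance 0.941), BC064078, Lpo, Dusp16 and Gdpd3. Pam read 3.37 and 2.62 in the KO and -0.58 and -0.78 in Axin2+ cells. High KO ratios of these genes follow from the ranking by the ratios of H2-T3 and are no separate result.

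**Figure D3:**
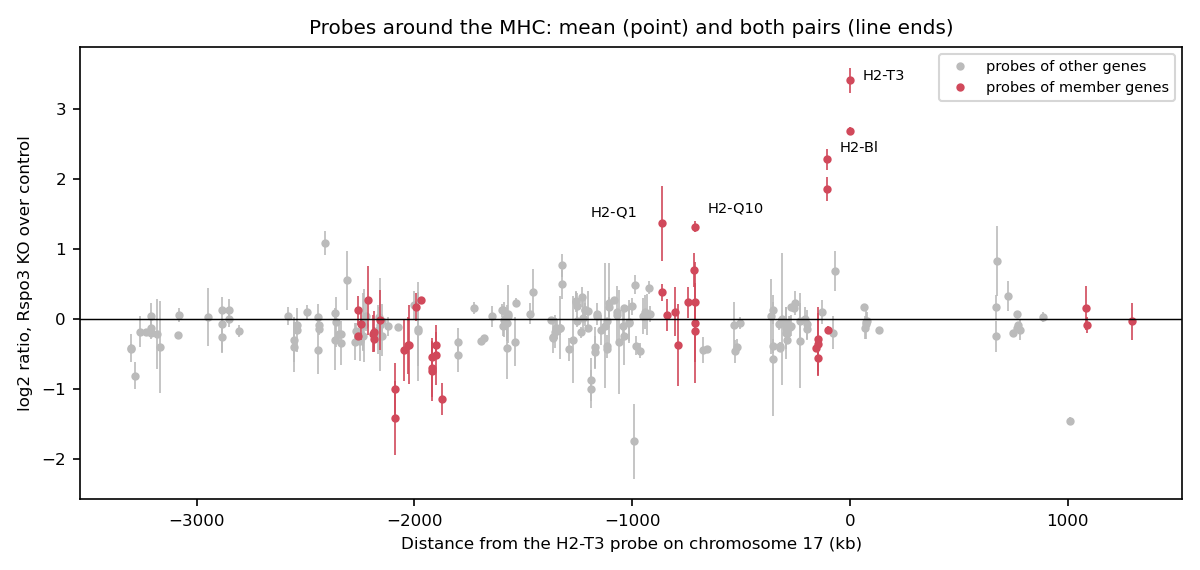
Log2 ratio of Rspo3 KO over control (vertical axis) of 222 measured probes by their distance from the H2-T3 probe in kb (horizontal axis), with the mean as a point and the 2 pairs as line ends. Both H2-T3 probes and the overlapping H2-Bl probes stand above the surrounding probes.

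Of the genes that process antigen for these molecules, 0 were called by limma in the KO, and 0 had an unadjusted p under 0.05. All 5 immunoproteasome and activator genes (Psmb8, Psmb9, Psmb10, Psme1 and Psme2) pointed in opposite directions in the 2 pairs. Of 5 trimming and folding genes, 1 was higher in both pairs (Pdia3, 0.20 and 0.23). Of 6 receptor genes of class I and Ib molecules, 2 were measured. Cd8b1 read -1.90 and -0.91 (adjusted p = 0.213) and Klrd1, which encodes CD94, -0.79 and -0.25 (adjusted p = 0.9998), while Cd8a, Klrk1, Klra1 and Cd160 did not reach the criterion.

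In the Axin2 experiment the class I group was lower in Axin2+ cells. Of 21 measured genes of class I, light chain, peptide loading and class Ib, 20 were lower on both arrays, where 41.8% of all genes were, and 14 were past 1.5-fold lower, where 6.97% of all genes were. H2-K1 read -1.02 and -0.86, or 1.92-fold lower, H2-L -0.50 and -0.78, and H2-D4 -0.45 and -0.90. All 7 probes with class I names were past 1.5-fold lower, where 5.75% of all probes were. B2m read -0.55 and -0.59, Tap1 -0.45 and -0.65, Tap2 -0.80 and -0.93, and Tapbp -0.23 and -0.34.

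Of 14 measured class Ib genes, 13 were lower on both arrays and 10 were past 1.5-fold. H2-Q1 was the lowest member at -1.19 and -1.21, or 2.30-fold lower, and thus ran in the other direction from its KO value. The brightest H2-Bl probe read -0.82 and -1.0, H2-K2 -0.65 and -1.05, and H2-M2 -0.73 and -0.95. H2-Q7 read -0.59 and -0.85, H2-Q2 -0.60 and -0.79, H2-Q4 -0.52 and -0.80, and H2-Q10 -0.47 and -0.83. H2-T23 read -0.59 and -0.72 and H2-T22 -0.74 and -0.51. H2-M3, H2-Q5 and H2-T3 were lower by less than 1.5-fold.

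Cd1d1 was the exception, at 0.93 and 1.33, or 2.19-fold higher in Axin2+ cells, and was the single member past 1.5-fold higher, where 7.84% of all genes were. Its one probe was well above background in every channel of both experiments.

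Class II genes lay around 0. Of 7 measured, 3 were lower on both arrays, 1 was higher on both and 3 were opposed, and their medians were 0.02 and -0.12. Cd74 read 0.26 and 0.19, H2-Eb1 0.20 and -0.09, H2-Ab1 0.11 and -0.12, H2-Aa 0.02 and -0.09, H2-DMa -0.00 and -0.22, and Ciita -0.08 and -0.22. H2-DMb1 was lowest at -0.55 and -0.53. The H2-Ke genes lay between -0.32 and 0.19 in this experiment and between -0.44 and 0.41 in the KO.

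**Figure D4:**
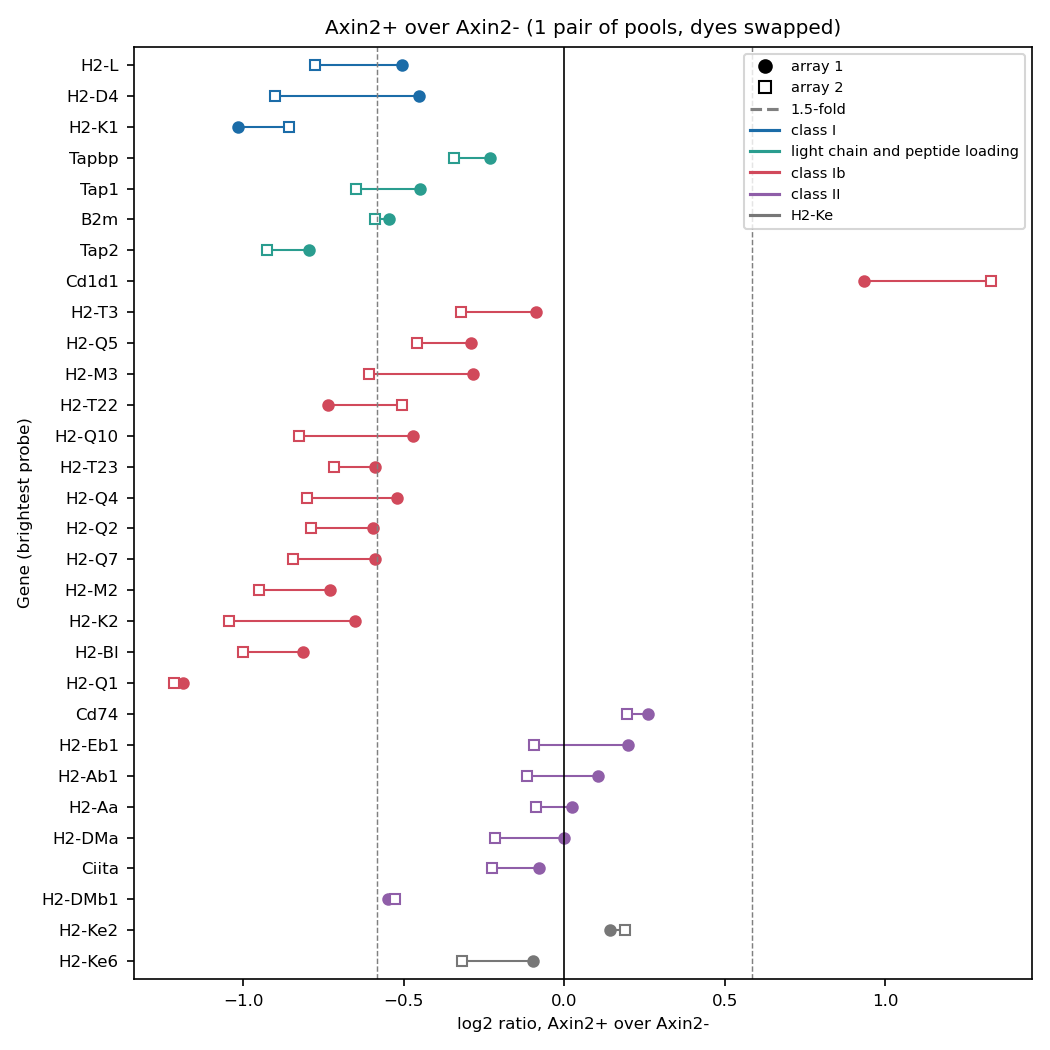
Log2 ratio of Axin2+ over Axin2- (horizontal axis) for the 30 measured genes, with the arrays of the dye swap as filled circles and open squares. Class I, loading and class Ib genes lie below 0 except Cd1d1, and class II genes lie around 0.

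Other genes of the pathway were lower in part. Of 5 immunoproteasome genes 4 were lower on both arrays, with Psmb9 at -0.39 and -0.64, and 0 were past 1.5-fold. The class II processing proteases Ctss (-0.71 and -1.40) and Lgmn (-0.72 and -0.59) and the class II regulator Rfxank (-0.61 and -0.86) were past 1.5-fold lower. The other regulators were not, with Rfxap at 0.55 and 0.20, Rfx5 at 0.01 and 0.15 and Nlrc5 at 0.01 and -0.15. Of 5 trimming and folding genes, 3 were higher on both arrays, with Canx at 0.45 and 0.36, and 2 were lower on both. Markers of surface enterocytes, the differentiated cells of the upper crypt, were lower as well. All 6 were lower on both arrays and 5 past 1.5-fold, with medians of -2.88 and -2.64. The 4 measured of 7 T cell markers were also lower on both arrays, with medians of -0.47 and -0.47, although the sort was for epithelial cells. The part of these cells in the class I values was not tested.

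The Axin2 count rests on the correction of dye bias by signal strength. With plain median centring in its place, the 21 class I, loading and class Ib genes had a median of 0.41 on array 1 and -2.28 on array 2, and 2 members, H2-K1 and H2-Q1, were lower past 1.5-fold with the same sign on both. The averages over the dye swap stayed below 0, with medians of -0.99 for class I and -0.95 for class Ib against -0.68 and -0.66 with loess.

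**Figure D5:**
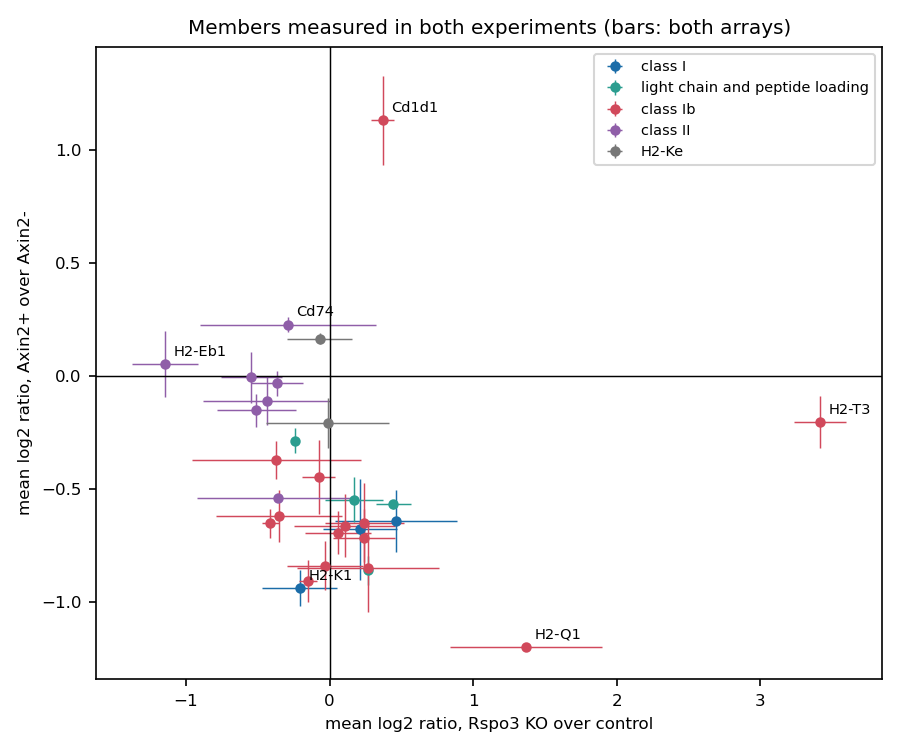
Mean log2 ratio of Rspo3 KO over control (horizontal axis) against that of Axin2+ over Axin2- (vertical axis) for the 30 genes measured in both, with bars from one array to the other. H2-T3 lies far right at 3.42 and near 0 on the vertical axis, and most class I and Ib genes lie below 0.

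Promoters of the members were compared, and those of H2-K1 and H2-T3 are shown as examples. RefSeq promoters of build GRCm38.p6, from 250 bases before to 50 after the start, were matched by symbol to 31 of the 46 genes. They were searched on both strands for ATTGG, the core of the inverted CCAAT element, and for GAANNGAAA, an interferon response element. ATTGG was in 16 of 18 class Ib, 7 of 8 class II and 3 of 3 light chain and loading promoters and in that of H2-K1, against 37.9% of all 27025 promoters. GAANNGAAA was in 5 of 18 class Ib promoters (H2-Q4, H2-Q7, H2-Q10, H2-M3 and H2-M2) and in that of H2-K1, against 7.56% of all promoters. It was in 0 of 8 class II and 0 of 3 light chain and loading promoters. The promoter of H2-K1 (chr17:34000298-34000597, minus strand) held 2 of the first motif and 1 of the second, in capitals, and that of H2-T3 (chr17:36190102-36190401, minus strand) held neither. Only exact matches were counted. The H2-T3 window holds tttcacttt, which differs from the H2-K1 match to the second motif in its last base. Of 13 class I, loading and class Ib promoters of genes measured in both experiments, 11 held ATTGG, and those of H2-T3 and H2-Q10 did not. H2-Q1 and Cd1d1 were not among these promoters.
H2-K1: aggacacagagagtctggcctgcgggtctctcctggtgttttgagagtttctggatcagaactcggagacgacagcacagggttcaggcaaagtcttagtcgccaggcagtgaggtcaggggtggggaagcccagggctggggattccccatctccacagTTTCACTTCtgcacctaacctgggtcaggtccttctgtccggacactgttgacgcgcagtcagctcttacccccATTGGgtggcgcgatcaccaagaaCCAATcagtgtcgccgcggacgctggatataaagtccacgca
H2-T3: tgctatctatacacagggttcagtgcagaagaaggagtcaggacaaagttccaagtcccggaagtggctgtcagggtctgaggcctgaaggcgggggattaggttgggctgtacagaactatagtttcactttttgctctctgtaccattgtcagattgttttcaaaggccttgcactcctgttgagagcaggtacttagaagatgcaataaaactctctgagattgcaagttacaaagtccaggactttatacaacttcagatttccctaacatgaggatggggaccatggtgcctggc
These matches describe the letters of the windows and were not tested against the ratios.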

How the data were processed

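RNA was measured on 4 dual-color Agilent arrays, 2 for Rspo3 KO against control mice and 2 for Axin2+ against Axin2- cells. The authors labelled, hybridised and scanned the arrays with Agilent Feature Extraction 11.5.1.1, per the file headers, and deposited for each spot the mean and background intensity of each dye. The authors also deposited the log10 ratio of Cy5 over Cy3, and the series value table holds the same log10 ratios to within 5e-10. Samples were grouped by their labels, which give distal colon and Trizol where the methods give colon and a column kit.

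Here, intensities were corrected with limma 3.58.1 (R 4.3.3) by normexp with an offset of 50. Spots with a background outlier, 66 and 6 on the KO arrays, stayed out of that fit, and outlier spots, between 124 and 510 per array, were left out. Log2 ratios were normalised by loess within arrays and turned to KO or Axin2+ on top. Of 41174 probes, 27887 were named by accession, 5963 by symbol and 491 by synonym through RefSeq (GRCm38.p6), and 6833 kept their array name. The 2 file versions differ in the name of 4519 probes. Probe positions are those of mm9 in the array files. KO ratios were tested with lmFit and eBayes over all 15295 measured genes, with Benjamini-Hochberg adjustment at 0.05. The precision is limited by the number of arrays. On simulated data with 200 changed genes of 2 to 3 on the log2 scale among 15295, 100% were recovered and between 11.9% and 13.8% of calls were unchanged genes. The tested members had means from -1.41 to 1.37, so this recovery does not show what the fit finds at their size. The share of unchanged genes lay above the threshold of 0.05, so adjusted p values near it, such as those of the H2-Bl probes, call for caution. Python 3 drew the figures.

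The members, gene lists and motifs were chosen with earlier results of these data known. Values of every array are given for H2-T3, the class I, loading and class II genes, Cd1d1 and each other member past 1.5-fold in either experiment. The alternatives were other background corrections and offsets, the deposited log10 ratios, median centring, other filters, other rules for several probes of a gene, leaving out an array, a fit with a dye term and a 2-fold threshold.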

Additional observations from a re-analysis of the deposited data

How the results depend on the processing

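H2-T3 stayed past 1.5-fold higher in the KO under every alternative run. Its KO ratios led to the choice of the set, so this is no independent support for them. The number of genes called in the KO was 36, and it became 124 with the software's log ratios or the series value table, 1 with the background fitted to all spots, 70 without background correction, 128 with an offset of 16, 7 with median centring, 0 without a filter on dim probes (1195 at an unadjusted p of 0.05), 3 with the mean over probes and 232 with 4 arrays and a dye term. Members called without H2-T3 were 0, but 2 with an offset of 16 (H2-Q1 and H2-Oa), 2 with the dye term (H2-Q1 and H2-Eb1) and 2 over single probes (both H2-Bl). Members lower past 1.5-fold in the KO were 2, but 4 with the software's log ratios or the value table (Ciita and H2-Ab1 added), 3 with an offset of 16 (Ciita added), 5 over single probes and 1 with the dye term, in which H2-Oa could not be fitted. Members higher were 2, but 7 over single probes and 3 with the mean over probes (H2-Bl added). Leaving out an array gave between 2 and 4 members higher and between 2 and 9 lower in the KO. The median of class I in the KO was 0.21 by gene and -0.19 over single probes.

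In the Axin2 experiment, 14 members were lower past 1.5-fold, but 2 with median centring, 23 over single probes and 1 at a 2-fold threshold (H2-Q1). The other counts were 18 with the software's log ratios or value table, 17 with an offset of 16, 15 without background correction, 12 with the mean over probes and between 10 and 16 with an array left out, and 14 under the rest. Median centring moved the medians of class I, loading and class Ib to -0.99, -0.68 and -0.95, the software's log ratios or value table moved that of loading to -0.68, and dropping the filter moved that of class Ib to -0.20. The causes were not tested, apart from the lower counts of genes and probes that a filter or a threshold gives by construction. No paired analysis was possible because no replicate block can be added to a fit whose values already are the differences within pairs, so that the KO fit is itself paired. With 1 array left out no spread remains, and the values have no test. The design of 2 pairs limits what the KO comparison can show, and Axin2 has 1 pool per group.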
